A study of Mus musculus with 15 samples.

Results

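The genes followed here were expressed in liver and had known roles outside it: Fgf21, Angptl4, Angptl8, Igfbp1, Igfbp2, Lepr, Inhbe, Gdf15 and Fst. They encode hepatokines (hormone-like proteins that the liver releases into blood), 2 binding proteins of insulin-like growth factors (IGFs) and the leptin receptor. The 9 genes were chosen by name from 21702 genes in the table, with earlier results of these data known, and all 9 were among the 12172 genes with enough counts to be tested. RNA was sequenced from whole liver of 15 wild-type C57BL/6 female adult mice (C57BL/6N in the study's methods), 3 in each of 5 groups. All mice had received by tail vein an adeno-associated virus of serotype 8 (AAV8) whose TBG promoter restricts expression to hepatocytes, and it carried either no cDNA (AAV8-null) or mouse p21 cDNA, the product of Cdkn1a and an inhibitor of cyclin-dependent kinases (AAV8-p21). AAV8-null mice were non-pregnant (NP) or were taken 8 or 16 days post-coitum (dpc), and AAV8-p21 mice were taken at 8 or 16 dpc. There was no AAV8-p21 NP group among these libraries, so the virus can be compared only within pregnancy. The transgene raises the same transcript as the endogenous gene, and whole liver also holds cells in which the TBG promoter is not active.

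Each library held 12280709 to 17615185 counted reads. Levels below are normalized read counts (CPM), each relative to the library's size as scaled by the trimmed mean of M-values (TMM), and differences are log2 fold changes with their standard error (SE), tested with edgeR over all 12172 genes and called at an adjusted p under 0.05. Cdkn1a, the gene carried by the virus, lay at 347 to 1664 CPM in the 6 AAV8-p21 livers and at 3.29 to 127 CPM in the 9 AAV8-null livers, so every library matched the virus of its label. Albumin (Alb), the main secreted product of hepatocytes, gave the liver signature in all groups, from 65700 CPM in the lowest library to 408500 in the highest. The 7 hepatocyte markers summed to 94550 to 111900 CPM in NP livers, to 310900 to 436200 in AAV8-null livers at 16 dpc and to 272900 to 307000 in AAV8-p21 livers at 16 dpc, mostly through Alb, and no hepatocyte marker was at 0. In AAV8-null livers at 16 dpc against NP, 2 of the 7 were called higher, Alb and Apoa1 (the latter lost without library 3 of NP, adjusted p = 0.0505), and 1 lower, Ttr (transthyretin, log2 fold change -1.41, adjusted p = 0.0214, lost without library 1 of NP or library 2 or 3 at 16 dpc, up to 0.0829), with a median of 0.49. In whole liver, a larger number of cells of one type and more RNA per cell cannot be told apart.

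Hepatokines adjust metabolism to the nutritional state. FGF21, induced by fasting through PPAR-alpha and by amino acid stress through ATF4, acts on a receptor made of an FGF receptor and beta-klotho. ANGPTL4 and ANGPTL8 inhibit lipoprotein lipase, the former in fasting and the latter after feeding. IGFBP1, which insulin represses, and IGFBP2 bind IGF-I and IGF-II in blood and tissue. The leptin receptor signals through JAK2 and STAT3, and a soluble form of it binds leptin in the circulation. INHBE is the subunit of activin E, FST (follistatin) binds and neutralizes activins, and GDF15 is a stress-induced hormone whose receptor, GFRAL, lies in the hindbrain.

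The genes lie on separate chromosomes of the mouse genome (GRCm38). Fgf21 is at chr7:45613886-45615490 on the minus strand, Angptl4 at chr17:33773750-33781830 on the minus strand, Angptl8 at chr9:21835510-21837347 on the plus strand, Igfbp1 at chr11:7197782-7202546 on the plus strand and Igfbp2 at chr1:72824503-72852474 on the plus strand. Lepr is at chr4:101717404-101815352 on the plus strand, Inhbe at chr10:127348857-127354411 on the minus strand, Gdf15 at chr8:70629393-70632456 on the minus strand and Fst at chr13:114452290-114458951 on the minus strand. Angptl8 lies inside Dock6, which runs on the opposite strand and shares no exonic base with it. Fst shares 115 exonic bp with an antisense gene, and the strand setting of the read counting is not given in the sources used here, so reads of the pair may not be separated. Counts per gene do not separate the long, signalling form of Lepr from its short and soluble forms.

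RefSeq promoter windows (GRCm38.p6, 250 bases before to 50 after the start of transcription) were found for 7 of the 9 genes, with 10 windows in all. They were searched on both strands for 4 short motifs tied to the regulators named above. The ATF4-C/EBP composite element TGATGCAA was present in the windows of Fgf21, Angptl8 and Inhbe, against 0.895% of 32851 windows genome-wide. These 3 sites are shown because they place genes with different receptors beside the same letters. Each is printed on the strand of its gene, with the motif or its reverse complement in capitals.
Fgf21, chr7:45615611-45615640, minus strand: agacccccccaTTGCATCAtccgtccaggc
Angptl8, chr9:21835369-21835398, plus strand: agccatcagtcTGATGCAAtggctgagcct
Inhbe, chr10:127352011-127352040, minus strand: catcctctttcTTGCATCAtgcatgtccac
The motif began 139, 130 and 181 bases upstream of the RefSeq start in Fgf21, Angptl8 and Inhbe. The Inhbe window belongs to a RefSeq start inside the longer GENCODE gene. The core of the insulin response element, CAAAACAA, to which FOXO proteins bind, was present in the windows of Igfbp1 and Lepr, against 2.51% of all windows.
Igfbp1, chr11:7197668-7197697, plus strand: gagctcacaagCAAAACAAacttattttga
Lepr, chr4:101717781-101717810, plus strand: caaattagaaaCAAAACAAatagaaaagcc
It began 108 bases upstream of the Igfbp1 start and 114 bases upstream of the Lepr start. The Lepr window, like that of Inhbe, belongs to a RefSeq start inside the longer GENCODE gene. TATAAA was present in the Fgf21 window and in 13.6% of all windows, and the PPAR direct repeat AGGTCANAGGTCA in none of the 10 windows and in 0.0396% of all windows. A match is a description of the letters only, and the absence of so rare a motif from 10 windows does not bear on regulation by PPAR-alpha.

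Per kilobase of exon, the IGF-binding proteins were the most abundant of the 9 transcripts. Igfbp2 led in NP livers, at 355 ± 103 CPM per kb (SD, n = 3), and Igfbp1 in AAV8-null livers at 16 dpc, at 965 ± 313 CPM per kb. Angptl4 and Angptl8 came next in NP livers, at 69.8 ± 1.68 and 33.7 ± 21.5 CPM per kb. Inhbe, Fgf21, Lepr and Gdf15 lay between 5.50 and 12.1 CPM per kb in NP livers, and their SDs overlapped. Fst was the lowest, with group means of 0.0262 to 0.621 CPM per kb and 0 to 51 reads per library.

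**Figure D1:**
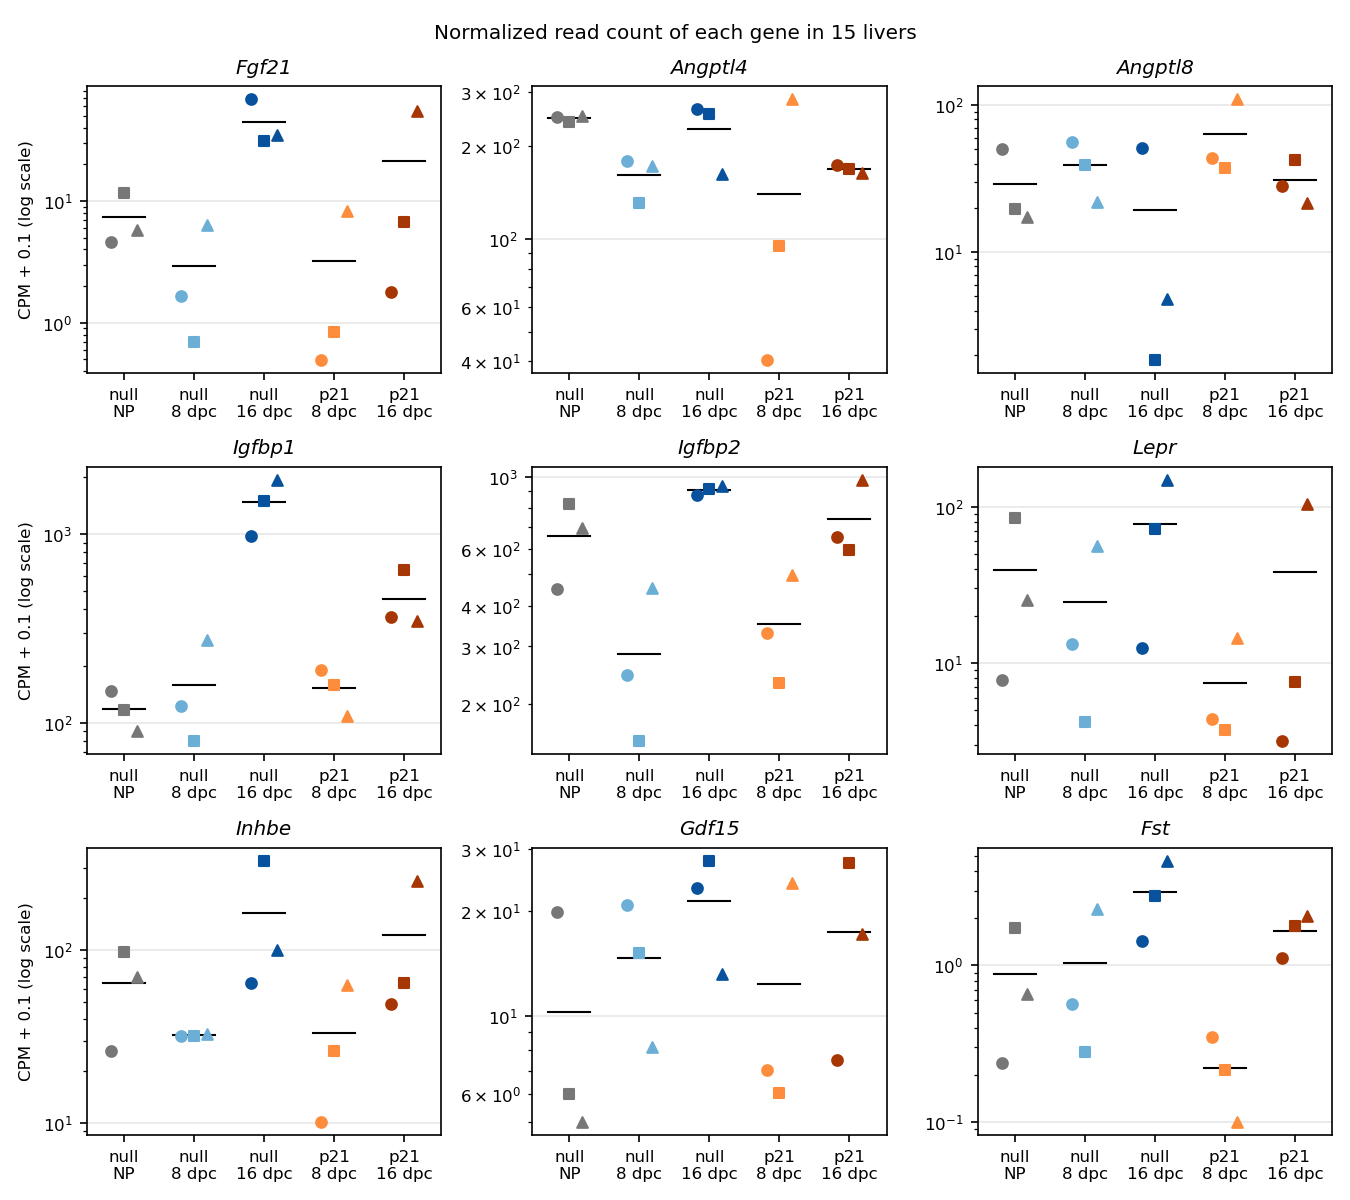
Normalized read count of each of the 9 genes (CPM plus 0.1, log scale) by group; each point is 1 liver, circles, squares and triangles mark the libraries of a group in the order of their numbers, and the bar is the mean. Igfbp1 stood at 981 to 1935 CPM in AAV8-null livers at 16 dpc, above all other livers, while Lepr, Fgf21 and Angptl8 spread over more than 10-fold within at least 1 group.

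The first comparison asked how late pregnancy differed from the non-pregnant state in AAV8-null livers. Igfbp1 was the 1 gene of the 9 that was called, and it was higher, where 6.52% of all tested genes were called in either direction. Its levels in NP livers were 147, 117 and 90.1 CPM, and in livers at 16 dpc 981, 1499 and 1935 CPM. The highest NP liver was thus far below the lowest liver at 16 dpc. Igfbp1 rose by 3.64 on the log2 scale (SE 0.45, adjusted p = 0.000365), which is 12.5-fold. The call held when each of the 6 livers was left out in turn, with log2 fold changes of 3.40 to 3.86.

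Fgf21 followed in size without passing the test. NP livers held 4.50, 11.5 and 5.73 CPM, and livers at 16 dpc held 68.7, 30.7 and 34.6 CPM. The groups did not overlap, as in 12.1% of all genes in this direction, and the log2 fold change of 2.62 had an SE of 1.12 (95% interval 0.11 to 5.12, adjusted p = 0.197). Fitted on these 2 groups alone, it was called (adjusted p = 0.0201).

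Igfbp2 was already abundant in NP livers and differed little at 16 dpc. Its levels were 450, 824 and 694 CPM in NP livers and 878, 916 and 936 CPM at 16 dpc, without overlap between the groups. Before scaling, NP livers held 6496 to 13531 reads of Igfbp2 and livers at 16 dpc 9847 to 10995, so the lack of overlap depended on the scaling. The log2 fold change was 0.47 (95% interval -0.35 to 1.30, adjusted p = 0.504). The pair of IGF-binding proteins therefore stood in a different order in the 2 groups, with Igfbp2 above Igfbp1 in every NP liver and Igfbp1 above Igfbp2 in every liver at 16 dpc, in CPM per kb of exon.

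The activin-related genes and Gdf15 had positive differences that the test did not separate from 0. Inhbe held 25.8, 97.4 and 69.9 CPM in NP livers and 64.3, 329 and 99.9 CPM at 16 dpc (log2 fold change 1.35, adjusted p = 0.323, and 0.35 without library 2 at 16 dpc), and the groups overlapped. Fst held 2, 27 and 8 reads in NP livers and 15, 32 and 51 reads at 16 dpc (log2 fold change 1.83, adjusted p = 0.220, and 1.33 to 3.0 with single livers left out). Gdf15 held 19.7, 5.91 and 4.89 CPM in NP livers and 23.1, 27.7 and 13.1 CPM at 16 dpc (log2 fold change 1.07, adjusted p = 0.362, and 1.98 with 0.0990 without library 1 of NP). In each of these 3 genes at least 1 NP liver lay inside the range of the livers at 16 dpc.

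The lipoprotein lipase inhibitors showed no difference that passed the test. Angptl4 held 250, 240 and 251 CPM in NP livers, the tightest group of any of the 9 genes but 1, and 264, 255 and 163 CPM at 16 dpc (log2 fold change -0.12, 95% interval -1.15 to 0.91, adjusted p = 0.920). Angptl8 held 50.6, 19.6 and 17.2 CPM in NP livers, and at 16 dpc it was 50.9 CPM in library 1 against 1.75 and 4.72 in libraries 2 and 3. The Angptl8 result turned on that library: over all 3 livers the log2 fold change was -0.61 (adjusted p = 0.735), and without library 1 it was -3.17 (adjusted p = 0.0185). Library 1 was also the lowest of its group for Igfbp1, Igfbp2, Lepr, Inhbe and Fst, and the highest for Fgf21 and Angptl4.

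Lepr was the most variable of the 9 genes. It held 7.62, 84.4 and 25.0 CPM in NP livers and 12.4, 71.8 and 148 CPM at 16 dpc. The highest liver exceeded the lowest 11.1-fold in the first group and 11.9-fold in the second, and the groups overlapped over most of their range. The log2 fold change of 0.98 had a 95% interval of -1.73 to 3.70 (adjusted p = 0.697), and it ranged from 0.11 to 2.24 with single livers left out. Its biological coefficient of variation, the relative spread between livers beyond counting error, was 0.956, at the 99.8th percentile of all tested genes, and Fgf21 followed with 0.902 at the 99.7th. Igfbp2 and Igfbp1 were the least variable, at 0.328 and 0.359, and all 9 genes were above the median of 0.239 over all genes.

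**Figure D2:**
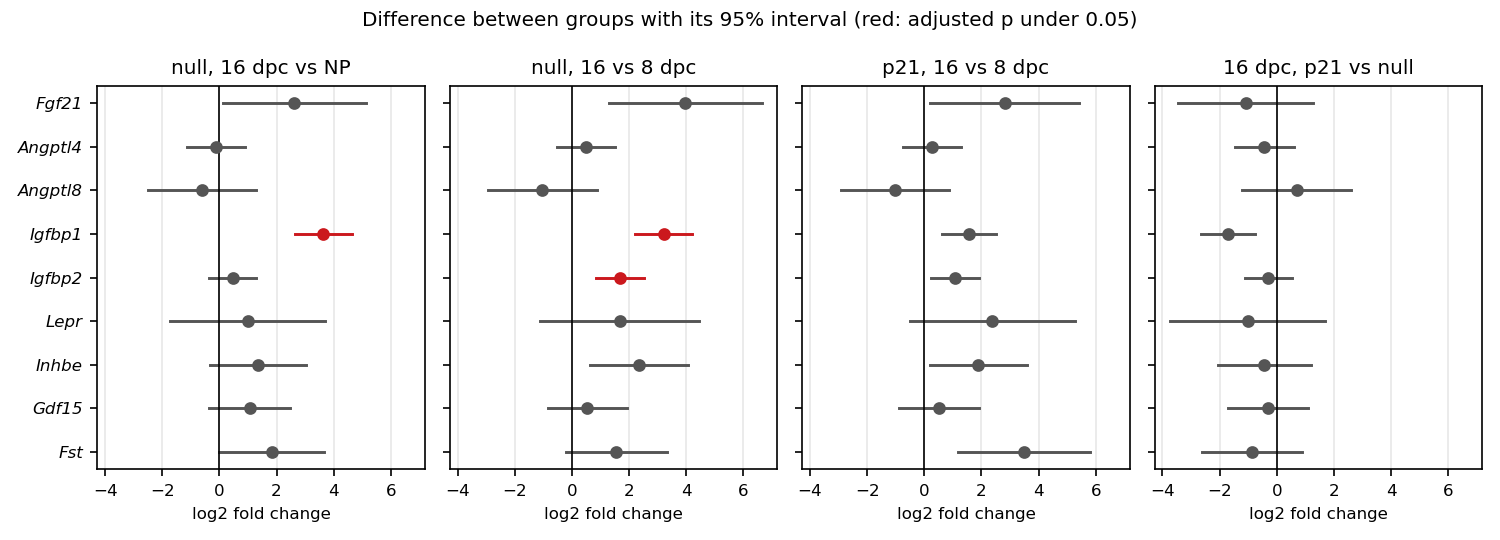
Log2 fold change of each of the 9 genes (points) with its 95% interval (lines) in 4 comparisons; red marks an adjusted p under 0.05. Igfbp1 at 16 dpc against NP and against 8 dpc, and Igfbp2 at 16 dpc against 8 dpc, were the 3 called differences, all in AAV8-null livers, and the intervals of Lepr spanned more than 5 log2 units in each comparison shown.

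At 8 dpc none of the 9 genes differed from NP livers by the test, and neither did any other gene (0% called by edgeR). At an unadjusted p under 0.05, 803 of all genes and 1 of the 9 genes passed, and DESeq2 called 66 of all genes and 0 of the 9. The gene that passed unadjusted was Igfbp2, at 244, 154 and 454 CPM in AAV8-null livers at 8 dpc, where only the last reached the range of the NP livers. Its log2 fold change was -1.21 (95% interval -2.04 to -0.37, adjusted p = 0.395), and it was called without library 3 of the 8 dpc group (log2 fold change -1.72, adjusted p = 0.0486). Angptl4 was lower in all 3 livers at 8 dpc, with 180, 131 and 173 CPM, than in any NP liver, as were 5.52% of all genes, and its log2 fold change was -0.61 (95% interval -1.65 to 0.42, adjusted p = 0.994). Igfbp1, which was so high at 16 dpc, held 123, 79.9 and 273 CPM at 8 dpc and overlapped the NP livers.

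Between 8 and 16 dpc in AAV8-null livers, 2 of the 9 genes were called higher, where 6.87% of all genes were called. Igfbp1 rose by 3.21 (SE 0.45, adjusted p = 0.000835), and this call held with each liver left out (2.89 to 3.86). Igfbp2 rose by 1.68 (SE 0.38, adjusted p = 0.0181) from the 8 dpc levels above, and no liver at 8 dpc reached those at 16 dpc, as in 12.5% of all genes in this direction. The Igfbp2 call was lost without library 1 (adjusted p = 0.0845) or 2 (0.0809) at 8 dpc or library 2 at 16 dpc (0.0517), and in a fit of these 2 groups alone (0.0572), with log2 fold changes of at least 1.38 when livers were left out. This comparison shares its 16 dpc livers with the first comparison and its 8 dpc livers with the second.

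Fgf21 had the largest difference of the 9 genes in this step, from 1.57, 0.595 and 6.24 CPM at 8 dpc to at least 30.7 CPM at 16 dpc. The log2 fold change was 3.97 (SE 1.21, 95% interval 1.29 to 6.66), with an adjusted p of 0.0623. It was called in 5 of 6 alternative fits, among them DESeq2 (0.0188), the fit without the low-count filter (0.0485) and that of the compared groups alone (0.0341), and without library 3 at 8 dpc (0.0382), but not without any other single library of these 2 groups (0.0956 to 0.215). Inhbe was nearly constant at 8 dpc, at 31.9, 32.0 and 32.8 CPM, below every liver at 16 dpc (log2 fold change 2.35, SE 0.77, adjusted p = 0.0823, and 1.35 with 0.382 without library 2 at 16 dpc, which held the 329 CPM). Fst (1.56, adjusted p = 0.266), Lepr (1.67, 0.468) and Gdf15 (0.54, 0.664) were further from the threshold, though Fst was called without library 3 at 8 dpc (0.0388). For Angptl8 the log2 fold change was -1.03 (adjusted p = 0.520), and -3.60 (0.0126) without library 1 at 16 dpc.

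The same step in AAV8-p21 livers shares no library with the AAV8-null step. By edgeR 0 of the 9 genes were called, where 3.32% of all genes were called. At an unadjusted p under 0.05, 2002 of all 12172 genes passed, and DESeq2 called 797. Of the 9 genes, 5 passed unadjusted and DESeq2 called 2. Igfbp1 held 190, 158 and 109 CPM at 8 dpc and 363, 643 and 345 CPM at 16 dpc, without overlap, as in 11.5% of all genes in this direction. The log2 fold change was 1.57 (SE 0.42, 95% interval 0.63 to 2.50), with an adjusted p of 0.0565 by edgeR and of 0.00428 by DESeq2. Fst went from 5, 2 and 0 reads to 12, 23 and 27 reads, the other gene that DESeq2 called (0.00847), against an edgeR log2 fold change of 3.49 (SE 1.04, adjusted p = 0.0857). Igfbp2 held 330, 231 and 496 CPM at 8 dpc and 652, 594 and 976 CPM at 16 dpc, again without overlap (log2 fold change 1.07, adjusted p = 0.148).

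For the other genes of the AAV8-p21 step, single livers stood apart. Library 4 at 16 dpc held 54.8 CPM of Fgf21, where the other two held 1.70 and 6.61. The same liver held 103 CPM of Lepr against 3.07 and 7.41, and 253 CPM of Inhbe against 48.5 and 64.7. Without it the log2 fold change of Lepr turned from 2.38 to -0.47, that of Fgf21 went from 2.81 to 0.49 and that of Inhbe from 1.89 to 0.78. At 8 dpc, library 3 held 8.20 CPM of Fgf21 against 0.395 and 0.742, and 285 CPM of Angptl4 against 40.3 and 94.8. Without that library Angptl4 was called higher at 16 dpc (log2 fold change 1.33, adjusted p = 0.0380), against 0.27 (adjusted p = 0.833) with it. Angptl8 held 43.5, 37.0 and 110 CPM at 8 dpc and 28.3, 42.5 and 21.6 CPM at 16 dpc (adjusted p = 0.608). Gdf15 held 6.91, 5.94 and 23.9 CPM at 8 dpc and 7.41, 27.3 and 17.0 CPM at 16 dpc (adjusted p = 0.756).

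At 16 dpc, AAV8-p21 livers were then set against AAV8-null livers. By edgeR 0 of the 9 genes were called, where 0.0739% of all genes were called. At an unadjusted p under 0.05, 1189 of all 12172 genes passed, and DESeq2 called 135. Of the 9 genes, 1 passed unadjusted and DESeq2 called the same gene. This was Igfbp1, at 363, 643 and 345 CPM in AAV8-p21 livers against 981, 1499 and 1935 CPM in AAV8-null livers. The 2 groups did not overlap, as in 7.02% of all genes in this direction, and both lay above all NP livers. The log2 fold change was -1.71 (SE 0.42, 95% interval -2.64 to -0.77), a 3.27-fold lower level, with an adjusted p of 0.145 by edgeR and of 0.00718 by DESeq2, and of 0.142 to 0.630 by edgeR with single livers left out. Igfbp2, in contrast, had a log2 fold change of -0.30 (95% interval -1.12 to 0.53).

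The remaining 7 genes had adjusted p-values of 0.753 to 0.907 in this comparison, and the intervals were wide. For Fgf21 the log2 fold change was -1.08 (95% interval -3.44 to 1.28), for Lepr -1.02 (-3.75 to 1.70) and for Inhbe -0.43 (-2.07 to 1.21). Without library 4 of AAV8-p21 these values were -3.41, -3.87 and -1.54, and the smallest with a single liver left out were -0.54 for Fgf21 (without library 1 of AAV8-p21) and -0.15 for Lepr (without library 3 of AAV8-null). Inhbe turned to 0.57 without library 2 of AAV8-null. Angptl4, the tightest of these 7, gave -0.43 (-1.46 to 0.60), from 174, 169 and 164 CPM in AAV8-p21 livers. Angptl8 was the 1 gene of the 9 with a positive value, 0.69 (-1.21 to 2.59). It was the gene with the low pair of AAV8-null livers described above, and its value was 3.26 (adjusted p = 0.124) without library 1 of AAV8-null and 0.15 without library 2.

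At 8 dpc AAV8-p21 livers were set against AAV8-null livers in the same way. By edgeR 0 of the 9 genes were called, where 0.0246% of all genes were called. At an unadjusted p under 0.05, 631 of all 12172 genes passed, and DESeq2 called 29. Of the 9 genes, 1 passed unadjusted and DESeq2 called 0. That gene was Fst, at 5, 2 and 0 reads in AAV8-p21 livers and 8, 3 and 42 reads in AAV8-null livers (log2 fold change -2.79, 95% interval -5.14 to -0.45, adjusted p = 0.800), where the 42 reads of library 3 stood apart from the other libraries and the value without it was -1.24. Igfbp1 had a log2 fold change of -0.06 (95% interval -0.97 to 0.85) and Igfbp2 of 0.31 (-0.51 to 1.13). The interval of Fgf21 (-2.56 to 2.72) included several-fold differences either way, and that of Lepr (-4.57 to 1.10) extended further below 0 than above it.

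The change of the virus difference from 8 to 16 dpc was tested directly by an interaction term. No gene was called by edgeR or by DESeq2 (0% of all genes), and at an unadjusted p under 0.05 there were 376 of all genes and 1 of the 9. For Igfbp1 the virus difference at 16 dpc was lower than at 8 dpc by a log2 value of -1.65 (SE 0.58, 95% interval -2.95 to -0.35, adjusted p = 1). A different effect of AAV8-p21 on Igfbp1 at the 2 stages was therefore not shown.

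Ordered by level, Igfbp1 ran from NP livers (118 ± 28.4 CPM, SD, n = 3) through AAV8-p21 at 8 dpc (152 ± 41.0) and AAV8-null at 8 dpc (159 ± 101) to AAV8-p21 at 16 dpc (451 ± 167) and AAV8-null at 16 dpc (1472 ± 477). The lowest 3 of these groups overlapped, and the highest 2 were separate from each other and from the rest. Fgf21 ran from AAV8-null at 8 dpc (2.80 ± 3.02) and AAV8-p21 at 8 dpc (3.11 ± 4.41) through NP (7.25 ± 3.74) and AAV8-p21 at 16 dpc (21.1 ± 29.4) to AAV8-null at 16 dpc (44.7 ± 20.9), and each group overlapped the next. Igfbp2 was lowest in AAV8-null at 8 dpc (284 ± 154), followed by AAV8-p21 at 8 dpc (352 ± 134), NP (656 ± 190), AAV8-p21 at 16 dpc (741 ± 205) and AAV8-null at 16 dpc (910 ± 29.6), again with overlap between neighbours. For Lepr the order was AAV8-p21 at 8 dpc (7.38 ± 6.00), AAV8-null at 8 dpc (24.3 ± 27.5), AAV8-p21 at 16 dpc (38.0 ± 56.7), NP (39.0 ± 40.2) and AAV8-null at 16 dpc (77.3 ± 67.8), with SDs as large as the differences.

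**Figure D3:**
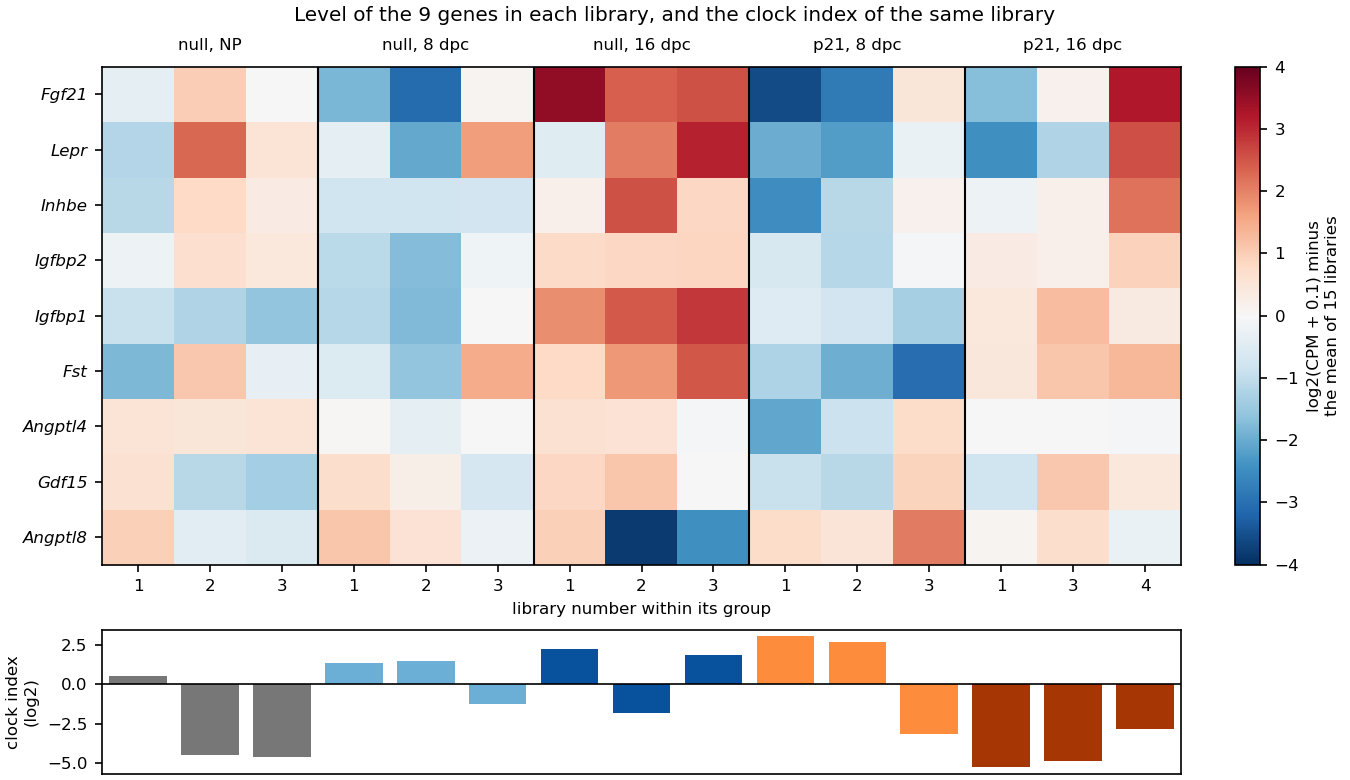
Upper panel: log2(CPM + 0.1) of each gene minus its mean over the 15 libraries, by library; lower panel: clock index of the same library in log2 units. Library 4 of AAV8-p21 at 16 dpc was the highest of its group for Fgf21, Lepr, Inhbe, Igfbp2 and Fst, and its clock index of -2.84 lay above the -5.29 and -4.86 of the other two.

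In most groups 1 liver was the highest for several of the genes. Fgf21, Igfbp2, Lepr, Inhbe and Fst had the same highest liver in NP mice (library 2) and in AAV8-p21 mice at 16 dpc (library 4), and in AAV8-null mice at 8 dpc library 3 led for Fgf21, Igfbp1, Igfbp2, Lepr and Fst, while Inhbe was nearly constant there. In AAV8-null mice at 16 dpc there was no such shared liver: library 1 led for Fgf21, library 2 for Inhbe and library 3 for Igfbp2, Lepr and Fst. In AAV8-p21 mice at 8 dpc, library 3 was highest for 7 of the 9 genes, with Igfbp1 and Fst as the exceptions. A clock index was computed for each liver as an average log2 CPM over the activator genes Arntl, Clock and Npas2, less the average over the output and repressor genes Ciart, Dbp, Nr1d1, Nr1d2, Per3 and Tef, and it differed between livers of one group. It was 0.51, -4.48 and -4.65 in NP livers. At 8 dpc it was 1.37, 1.49 and -1.23 with AAV8-null and 3.06, 2.70 and -3.18 with AAV8-p21. At 16 dpc it was 2.27, -1.80 and 1.87 with AAV8-null and -5.29, -4.86 and -2.84 with AAV8-p21, so that the viruses did not overlap at that stage. The part of sampling time or of feeding, which are not given in the sources used here, in the differences of the 9 genes was not tested.

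The transcripts whose levels most resembled each gene over the 15 libraries were named as a description, by Pearson's r of log2 CPM. The libraries share groups and scaling, and the genes were picked as the highest of all tested genes. Ranked by Spearman's rho instead, the top 3 shared 0 to 2 genes with those by Pearson's r, and 0 for Fgf21, Angptl4 and Fst. For Fgf21 these included Decr1 (r = 0.951), an enzyme of unsaturated fatty acid oxidation, and Rtf2 (0.948). For Igfbp1 they were Sgk1 (0.951), a kinase induced by glucocorticoids, Med12l (0.922) and Dnah11 (0.910). For Lepr they were Slc6a8 (0.953), the creatine transporter, Sulf2 (0.914) and Cidec (0.912), a lipid droplet protein. For Inhbe they were Cntrl (0.939), Pnpla2 (0.935), the main triglyceride lipase of lipid droplets, and Smim7 (0.935). The first ranked was Tpbgl for Igfbp2 (0.951), Qpct for Fst (0.953), Lsm8 for Angptl8 (0.937), Lims2 for Angptl4 (0.894) and Rhod for Gdf15 (0.859).

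The partners of the 9 genes were then read from 10 lists of related genes. In AAV8-null livers at 16 dpc against NP, 20 of 100 tested list genes were called, against 6.52% of all genes, and 8 of these stayed called with each liver left out and in every alternative fit: Ahsg, Lect2, Apoc2, Ghr, Stat3, Socs2, Cish and Vldlr. The median log2 fold change over all tested genes was -0.03, and that over the 9 genes was 1.07, with 7 of the 9 above 0.

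Leptin signalling had the largest share of called genes, 5 of 7 tested, all higher, with a median log2 fold change of 1.52, and 3 of these, Cish, Socs2 and Stat3, stayed called with each liver left out. Cish (2.05, adjusted p = 0.00133) and Socs2 (1.77, 0.00304) encode feedback inhibitors best known from growth hormone and cytokine receptors. Stat3 (1.52, 0.00142), the transcription factor that the receptor activates, held 63.5 to 74.8 CPM in NP livers and 129 to 259 CPM at 16 dpc. Socs3 (2.76, 0.0165), the feedback inhibitor of leptin receptor signalling, held 3.22 to 4.85 CPM in NP livers and 8.11 to 50.5 CPM at 16 dpc, and its call was lost without library 2 or 3 of NP or library 3 at 16 dpc (adjusted p up to 0.0773). Ptpn1 (0.96, 0.0273), a phosphatase that acts on JAK2, lost its call without library 2 or 3 of NP or library 2 at 16 dpc (up to 0.125). Jak2, the kinase bound to the receptor, had a value of 0.04 (adjusted p = 0.942). At 8 dpc against NP all 7 genes already had values above 0 (median 0.998), where no gene was called. From 8 to 16 dpc 1 of 7 was called higher (median 0.56), where 6.87% of all genes were called. Leptin itself had no read in any of the 15 libraries, and these regulators serve many receptors besides the leptin receptor.

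In the IGF system 3 of 11 genes were called, all higher, with a median of -0.05. The growth hormone receptor Ghr rose from 340 ± 51.8 to 3156 ± 1249 CPM (SD, n = 3), a log2 fold change of 3.21 (SE 0.35, adjusted p = 0.000113), and it stood at 2957 ± 861 CPM in AAV8-p21 livers at 16 dpc. The rise of Ghr from 8 to 16 dpc was called in both viruses, at 3.37 in AAV8-null and 3.27 in AAV8-p21 livers. Igfbp4 (0.71, adjusted p = 0.0428) and Igf2r (0.86, 0.0439), the receptor that clears IGF-II, were near the threshold, and the calls were lost when any liver (Igfbp4, adjusted p up to 0.119) or any but library 3 at 16 dpc (Igf2r, up to 0.148) was left out. Igf1 itself had a value of 0.71 (adjusted p = 0.0657) and Igfals, its carrier in blood, of -0.08 (0.943).

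In the list of FGF21 receptors, made of the FGF receptors and the co-receptor beta-klotho (Klb), 1 of 5 genes was called. Which of these receptors FGF21 uses was not measured. Fgfr4, the main FGF receptor of hepatocytes, fell by 0.93 on the log2 scale (adjusted p = 0.0126, and 0.0514 without library 3 at 16 dpc), with 24.9 CPM in the lowest NP liver and means of 28.8 ± 5.28 CPM in NP livers and 15.1 ± 0.825 CPM at 16 dpc (SD, n = 3). The co-receptor Klb did not pass the test (-0.23, adjusted p = 0.767). In the lipoprotein lipase list 1 of 7 was called, the lipase activator Apoc2 (2.34, SE 0.22, adjusted p = 3.24e-05), and Lpl had a value of -1.03 (adjusted p = 0.133). In the activin and GDF15 list 0 of 8 were called by edgeR, 3 had an unadjusted p under 0.05 and DESeq2 called 2. In this comparison 2578 of all 12172 genes had an unadjusted p under 0.05 and DESeq2 called 1207. The other activin subunits Inhba (1.45), Inhbb (1.85) and Inhbc (0.99) had adjusted p-values of 0.0762 to 0.111, and Gfral had no read in any library.

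Of 12 other hepatokines, 4 were called higher and 1 lower, with a median of 0.18. Ahsg (fetuin-A, 1.23, adjusted p = 0.00195) and Fgl1 (1.87, 0.00974) were higher and Lect2 (-1.96, 0.00931) was lower; Selenop (0.91, 0.0134), the plasma selenium carrier, was higher. The Fgl1 call was lost without library 2 of NP (adjusted p = 0.0544) and the Selenop call without library 3 of NP (0.0505). In the integrated stress response 1 of 12 was higher, Atf4 itself (0.72, adjusted p = 0.0495), a call lost without any of 5 of the 6 livers (up to 0.185), and 1 lower, the lipoprotein receptor Vldlr (-2.87, 6.68e-05). Among PPAR-alpha targets 2 of 14 were called, Pdk4 (3.78), an inhibitor of pyruvate oxidation, and Plin2 (2.55), a lipid droplet coat protein, both at an adjusted p of 0.0113 and higher. Pdk4 was not called without library 2 of NP (0.0599), its value was 1.89 without library 2 at 16 dpc, and Plin2 was not called without library 3 of NP or library 2 at 16 dpc (up to 0.0525). In the insulin and carbohydrate list 1 of 14 was called, Irs2 (1.55, 0.0355), the hepatic insulin receptor substrate, which was lost without any single liver (up to 0.135). Of 11 clock genes 0 were called by edgeR or DESeq2 and 5 had an unadjusted p under 0.05, with a median of -1.37. Over all 12172 genes, edgeR called 794, DESeq2 called 1207 and 2578 had an unadjusted p under 0.05.

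**Figure D4:**
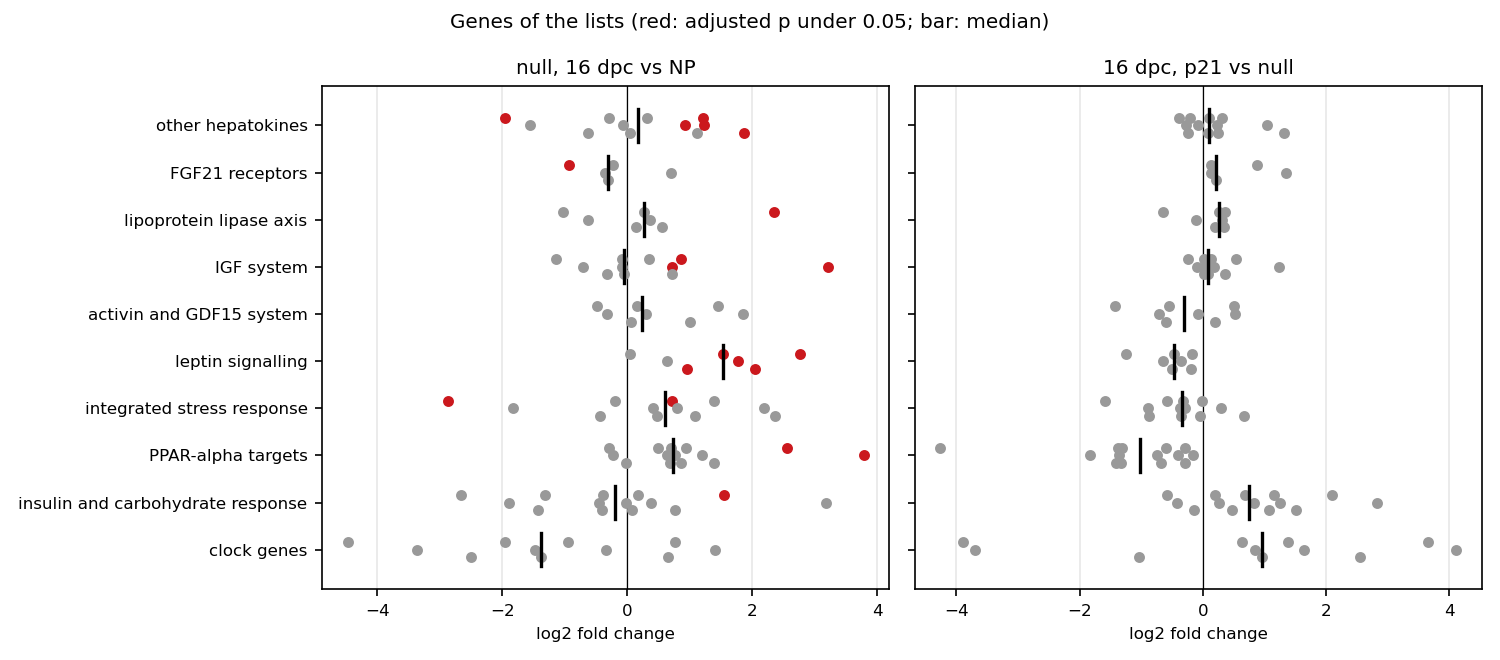
Log2 fold change of every tested gene of the 10 lists (points; red marks an adjusted p under 0.05) and the median of each list (bar), in AAV8-null livers at 16 dpc against NP (left) and in AAV8-p21 against AAV8-null livers at 16 dpc (right). In the left panel 5 of 7 leptin signalling genes were red; in the right panel no gene was red, and 14 of 14 PPAR-alpha targets lay below 0.

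In AAV8-p21 against AAV8-null livers at 16 dpc, 0 of 100 tested list genes were called by edgeR and 3 by DESeq2, and 20 had an unadjusted p under 0.05. Over all 12172 genes, edgeR called 9, DESeq2 called 135 and 1189 had an unadjusted p under 0.05. All 14 PPAR-alpha targets had values below 0, with a median of -1.03, and all 7 leptin signalling genes had values below 0, with a median of -0.47, against a median of -0.00023 over all genes. In the insulin and carbohydrate list 11 of 14 genes had values above 0, with a median of 0.75. At 8 dpc, in other livers, 0 of 14 PPAR-alpha targets had values above 0 (median -0.80). There 12 of 14 genes of the insulin and carbohydrate list had (median 0.80), and 3 of 7 leptin signalling genes. The livers of the 2 viruses overlapped in the summed CPM of the PPAR-alpha and the insulin and carbohydrate lists at both stages. The PPAR-alpha sums were 7944 to 28350 CPM with AAV8-null and 6760 to 11140 with AAV8-p21 at 8 dpc, and 22990 to 36640 and 7765 to 25920 at 16 dpc. At 16 dpc the 9 genes had a median of -0.43 with 1 above 0. The clock genes had a median of 0.96 at 16 dpc. The clock index of the 2 viruses did not overlap at 16 dpc and overlapped at 8 dpc, as given above. The part of sampling time or of feeding in these list values was not tested. None of these list counts rests on a gene called by edgeR.

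Markers of other liver cells were low beside those of hepatocytes. In AAV8-null livers the endothelial markers summed to 130 to 235 CPM in NP mice and 177 to 238 CPM at 16 dpc, and the Kupffer cell markers to 251 to 295 and 164 to 260 CPM. The stellate cell markers summed to 171 to 192 and 178 to 254 CPM, the bile duct markers to 19.7 to 31.4 and 8.42 to 17.3 CPM, and the red cell markers to 40.1 to 83.3 and 97.7 to 153 CPM. The lymphocyte and neutrophil markers summed to 8.22 to 11.3 and 11.3 to 30.0 CPM, with the neutrophil genes S100a8 (3.99) and S100a9 (3.77) called higher (3.20 to 4.68 and 2.64 to 5.00 with single livers left out). The red cell genes Hbb-bs and Alas2 were also called higher and the stellate cell gene Lrat lower. Each of these calls was lost without at least 1 liver (adjusted p up to 0.17 by edgeR). In AAV8-p21 livers at 16 dpc the same 6 sums were 170 to 198, 150 to 338, 191 to 238, 19.6 to 43.0, 103 to 140 and 7.36 to 14.3 CPM in the order given. No marker was at 0 in all livers of a group. At 8 dpc they were 95.9 to 131, 177 to 377, 90.6 to 146, 18 to 26.8, 76.5 to 88.3 and 13.3 to 20.1 CPM with AAV8-null and 124 to 163, 281 to 397, 154 to 225, 36.0 to 53.3, 90.3 to 155 and 10.2 to 16.5 CPM with AAV8-p21, beside hepatocyte sums of 76090 to 95050 and 108500 to 130400 CPM. Between NP and 16 dpc AAV8-null livers the bile duct, red cell and lymphocyte and neutrophil sums did not overlap, and between NP and 8 dpc the stellate cell and the lymphocyte and neutrophil sums. From 8 to 16 dpc the endothelial, stellate cell and red cell sums were apart and higher at 16 dpc in AAV8-null livers and the bile duct sums apart and lower, with Pecam1 (1.16, adjusted p = 0.0318), Clec4g (0.80, 0.0206) and Dcn (1.04, 0.0144) called higher, each of which lost its call without at least 1 liver (up to 0.159). In AAV8-p21 livers the endothelial sums were apart in this step. Between viruses the bile duct sums were apart at both stages, higher with AAV8-p21, and the stellate cell and red cell sums at 8 dpc. The hepatocyte sums were apart between viruses at both stages and between 8 and 16 dpc with either virus. The part of these cell types in the differences of the 9 genes was not tested.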

How the data were processed

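The authors prepared stranded mRNA libraries from whole liver and sequenced single-end reads. The deposited values are raw read counts per gene, made by the authors with cutadapt 1.14, HISAT2 2.1.0 on mm10 and HTSeq 0.12.4 on protein-coding GENCODE genes, from uniquely mapped reads. Counts were used as deposited. Groups came from the sample titles; the AAV8-p21 16 dpc columns are numbered 1, 3 and 4, unlike the titles, and were used as replicates without a number pairing.

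One model of 5 group means over 15 libraries was fitted with edgeR 4.0.16 (limma 3.58.1, R 4.3.3), with TMM scaling (factors 0.682 to 1.25), the filterByExpr filter (minimum count 10), quasi-likelihood tests and Benjamini-Hochberg adjustment over 12172 genes; SEs are the log2 fold change over the square root of F. DESeq2 1.42.0 Wald tests, other scaling and filters, fits of the compared groups alone and leaving out each library were alternatives. The TMM factors were 0.682 to 0.839 in the 16 dpc libraries and 1.10 to 1.25 in the NP and 8 dpc libraries. The scaling therefore raised CPM at 16 dpc relative to the other stages, and no fit without such scaling was run. Each group has 3 mice, 10 residual degrees of freedom remain, and Fst had few reads. Replicates are separate mice, per the study methods. An antisense overlap, near-identical copies and unseparated Lepr transcripts cannot be resolved in gene counts. Positions came from GENCODE M21 (GRCm38, the authors' build) and promoters from RefSeq, searched as exact letter matches on both strands.

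The 9 genes and the lists were chosen with earlier results of these data known. Named genes were the 9, Cdkn1a, up to 4 called genes per list by adjusted p (partners of the 9 where fewer than 2 were called), and the 3 genes most correlated with each of the 9; 1 of these is not reported here. Jak2, Lep, Ptpn1, Igf1 and Igfals lay outside this rule and were added after their values were seen.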

Additional observations from a re-analysis of the deposited data

How the results depend on the processing

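The calls of Igfbp1 in AAV8-null livers at 16 dpc, against NP and against 8 dpc, held under every alternative tried. The number of the 9 genes called moved as follows: for 16 dpc against NP in AAV8-null livers from 1 to 2 on the compared groups alone (Fgf21 added), and for 16 against 8 dpc in AAV8-null livers from 2 to 3 without the low-count filter, by DESeq2 and with the replicate block (Fgf21 added each time), while on the compared groups alone it stayed 2 with Fgf21 gained and Igfbp2 lost. For 16 against 8 dpc in AAV8-p21 livers it moved from 0 to 1 without the low-count filter (Igfbp1), 2 by DESeq2 and 2 on the compared groups alone (Igfbp1 and Fst in both). For AAV8-p21 against AAV8-null livers at 16 dpc it moved from 0 to 1 by DESeq2 (Igfbp1). List genes called at 16 dpc against NP numbered 20, 13 on the compared groups alone, 14 with a log2 fold change over 1 also required and 26 by DESeq2; for AAV8-p21 against AAV8-null livers they numbered 0, 1 without the filter and 3 by DESeq2. The cause was not tested. Over all genes, edgeR called 794 and DESeq2 1207 at 16 dpc against NP, 836 and 1358 at 16 against 8 dpc with AAV8-null, 404 and 797 with AAV8-p21, 9 and 135 between viruses at 16 dpc and 3 and 29 at 8 dpc.

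With single libraries left out, the number of the 9 genes called ranged from 1 to 2 (16 dpc against NP), 0 to 1 (8 dpc against NP), 1 to 4 (16 against 8 dpc, AAV8-null) and 0 to 1 (16 against 8 dpc, AAV8-p21). List genes called ranged from 11 to 22 at 16 dpc against NP (lowest without NP library 2 or 3) and from 0 to 1 between viruses at 16 dpc. Of 63 log2 fold changes of the 9 genes, none that was called changed sign. Those that did ranged, with single libraries left out, as follows. At 16 dpc against NP, Angptl8 ranged from -3.17 to 0.055 and Angptl4 from -0.24 to 0.072. At 8 dpc against NP, Fst ranged from -1.28 to 1.44, Lepr from -2.18 to 0.58 and Igfbp1 from -0.22 to 0.75. At 16 against 8 dpc with AAV8-p21, Angptl4 ranged from -0.17 to 1.33 and Lepr from -0.47 to 3.29. Between viruses at 16 dpc, Inhbe ranged from -1.54 to 0.57 and Gdf15 from -0.79 to 0.061. Between viruses at 8 dpc, Fgf21 ranged from -2.33 to 1.45, Gdf15 from -1.18 to 0.072, Igfbp1 from -0.38 to 0.59, Angptl4 from -1.26 to 0.23, Igfbp2 from -0.028 to 0.83 and Inhbe from -0.84 to 0.46. In the interaction, Angptl8 ranged from -0.55 to 2.56, Lepr from -2.13 to 1.62, Gdf15 from -0.53 to 0.88, Inhbe from -1.57 to 0.55, Fgf21 from -3.48 to 1.25 and Angptl4 from -0.66 to 0.82. DESeq2 size factors gave Angptl8 an interaction of 0.0012.

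A pairing of livers by replicate number was not shown: of 18 same-number pairs 7 had a correlation of deviations over 0.1. Same-number correlations ran from -0.529 to 0.451, with a mean of 0.0073 against -0.0073 for different numbers. Deviations were taken from the mean of 3 libraries per group, so the 2 means are not independent. The AAV8-p21 16 dpc group was left out, and the check could not exclude a pairing. The replicate block could be fitted in the 12 numbered libraries. There 3 of the 9 genes were called at 16 against 8 dpc, both with the block and without it, and at 16 dpc against NP the block gave 14 list genes against 17 without it in the same libraries. The block turned Fgf21 (-0.055), Igfbp1 (0.042) and Inhbe (-0.30) between viruses at 8 dpc. The fit of these libraries without a block and the counts over lists under alternatives were added after seeing the data. The low counts of Fst and the spread of Lepr, Fgf21 and Angptl8 limit what 3 livers per group can resolve.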
